A study of Ophthalmotilapia nasuta and Ophthalmotilapia ventralis with 60 samples.

Results

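Glutamate and GABA carry most of the fast excitatory and inhibitory signals between neurons of the vertebrate brain. The genes described here code for subunits of their receptors and were taken by name from the annotation: every gene whose symbol starts with gria, grik, grin or grm and a digit, with gabr and a subunit letter, or with gabbr1 or gabbr2. This gave 25 genes of the 36499 in the files. They fall into 3 genes of AMPA receptors (gria1, gria2 and gria4), 5 of kainate receptors (grik1 to grik5), 4 of NMDA receptors (grin2a, grin2b, grin2c and grin3b), 3 of metabotropic glutamate receptors (among them grm2 and grm5), 9 of GABA-A receptors (among them gabra2, gabra4, gabrb2, gabrd, gabrg1 and gabrg3) and 1 of the GABA-B receptor (gabbr2). Of these, 23 passed the filter on low counts (more than 15 CPM, counts per 1000000 counts, in at least 4 libraries). The remaining members, gabra4 and gabrg3, had 115 and 103 counts over the 59 libraries used and are given by their levels only. Receptor genes that the annotation lists under another name are not analysed here, so that a class sum below is a sum over the members and not over the whole class.

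AMPA, kainate and NMDA receptors are ion channels built from several subunits, and the choice of subunit sets how long a channel stays open, how strongly magnesium blocks it and whether calcium passes. Metabotropic glutamate receptors act through G proteins, and GABA-B receptors do so for GABA. GABA-A receptors are chloride channels, whose subunits decide whether they sit at synapses or outside them. In mammals these subunits differ between brain regions: cerebellar granule cells use the NMDA subunit encoded by Grin2c and the GABA-A subunit encoded by Gabrd, while the forebrain uses mainly Grin2a and Grin2b.

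The libraries are 3′ RNA sequencing (QuantSeq) of 6 brain parts of 5 wild-caught mature females of O. nasuta and 5 of O. ventralis, cichlids of Lake Tanganyika. The parts were the brain stem (BS), the cerebellum (CE), the diencephalon with preoptic area, hypothalamus and pituitary (DI), the olfactory bulbs (OB), the optic tectum (OT) and the telencephalon (TE), so that there are 12 groups of 5 fish, each fish giving all 6 parts, with no treatment in any group. Each species had its own catch site and aquarium, and O. nasuta was dissected before O. ventralis. Species, catch site, aquarium and order of dissection therefore cannot be told apart. Ages were not given. Within each fish the cerebellum was taken out first, then the telencephalon with the olfactory bulbs, and then the other parts. Brain part and order of dissection within a fish cannot be told apart either.

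Fish 5 of O. nasuta gave an olfactory bulb library of only 25798 counts, which was left out, and the other 59 libraries held 137128 to 1531632 counts (median 519523). A floor of 3 counts lies between 21.9 CPM in the shallowest library and 1.96 CPM in the deepest, and it covers counting error only. The labelled parts were checked against marker genes: in the brain stem hoxb3, a hindbrain patterning gene, was at 140.2 ± 43.2 CPM in O. nasuta and, for O. ventralis, 112 ± 24.8 CPM (SD, n = 5 each), against means of up to 0.902 CPM in the other parts. The lists for the cerebellum, the diencephalon and the optic tectum were likewise highest in their own part, as was, on average, th with arx in the olfactory bulbs. The telencephalon list did not set the telencephalon apart from the olfactory bulbs: its summed level was 339 CPM in the telencephalon of O. nasuta and 335 CPM in that of O. ventralis, and 386 CPM in the olfactory bulbs of O. nasuta and 272 CPM in those of O. ventralis. The olfactory bulb libraries of O. nasuta fish 4 and O. ventralis fish 1 had a telencephalon library as their nearest neighbour over all genes, which was so for 2 of the 59 libraries. Where a log2 fold change of a member in the olfactory bulbs is printed below, it is given with and without them. The counts of genes called in the olfactory bulbs and the class sums include them. Some olfactory bulb samples gave little RNA. The pituitary genes gh and prl of the marker list were not found by name. The summed level of 6 neuronal genes (snap25, syt1, elavl3, elavl4, rbfox3 and syn1) had group means of 8876 to 11858 CPM. The single genes did vary with the part. In both species 4 of them were higher and 1 lower in the cerebellum, where of all genes tested 15% were higher and 17.1% lower. In the olfactory bulbs 1 was higher and 3 were lower in both species, against 9.33% and 5.24% of all genes tested. The sums for other cell types differed more between the parts. Group means ran over 224 to 1120.1 CPM for the astroglial genes gfap and fabp7. They ran over 88.2 to 428 CPM for the oligodendrocyte genes mbp, mag and sox10. For the microglial and blood cell genes csf1r, spi1 and cd74 they ran over 144 to 692 CPM. In both species the astroglial genes were higher in the brain stem and the optic tectum, and lower in the olfactory bulbs and in the telencephalon, and all 3 microglial genes were higher in the brain stem. Of all genes tested, 9.85% were higher in the brain stem in both species and 10.2% in the optic tectum. Those lower in both species were 5.24% in the olfactory bulbs and 9.01% in the telencephalon. The oligodendrocyte sum was highest on average in the cerebellum, at 428 CPM in O. nasuta and, for O. ventralis, 405 CPM, followed by the brain stem and the optic tectum. Taken singly, 1 of these 3 genes was higher in the cerebellum in both species (15% of all genes tested were), and 2 were higher in the brain stem (9.85%). Their median log2 fold change was −0.40 in O. nasuta and 0.02 in O. ventralis for the cerebellum. For the brain stem it was 1.05 in O. nasuta and 1.22 in O. ventralis. The part of these cell types in the results below was not tested.

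Together the members took 0.458% of all counts, and 20 to 25 of them had at least 1 read in each of the libraries used. GABA-A receptor genes made up the largest sum in every part: 2934 ± 274 CPM in the diencephalon of O. nasuta and 3009 ± 146 CPM in that of O. ventralis (SD, n = 5 each), and means of 1808 to 2440.0 CPM in the other parts. The 3 metabotropic genes set the olfactory bulbs and the telencephalon apart. Their sum was 534 ± 53 CPM in the olfactory bulbs of O. nasuta (n = 4) and 597 ± 102 CPM in those of O. ventralis, and 490.3 ± 31.9 CPM in O. nasuta and, for O. ventralis, 552 ± 39.3 CPM in the telencephalon, against means of 140.2 to 209 CPM in the other parts. The kainate sum was highest in the diencephalon, at 934 ± 53.5 CPM in O. nasuta and, for O. ventralis, 1006 ± 64.2 CPM, and lowest in the cerebellum, at 269.6 ± 27.7 CPM in O. nasuta and, for O. ventralis, 257 ± 21.1 CPM. The cerebellum was lowest for the AMPA and NMDA sums as well (AMPA 354 CPM in O. nasuta and, for O. ventralis, 341 CPM, NMDA 212 CPM in O. nasuta and, for O. ventralis, 248 CPM), although its AMPA sum overlapped with that of the brain stem.

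**Figure D1:**
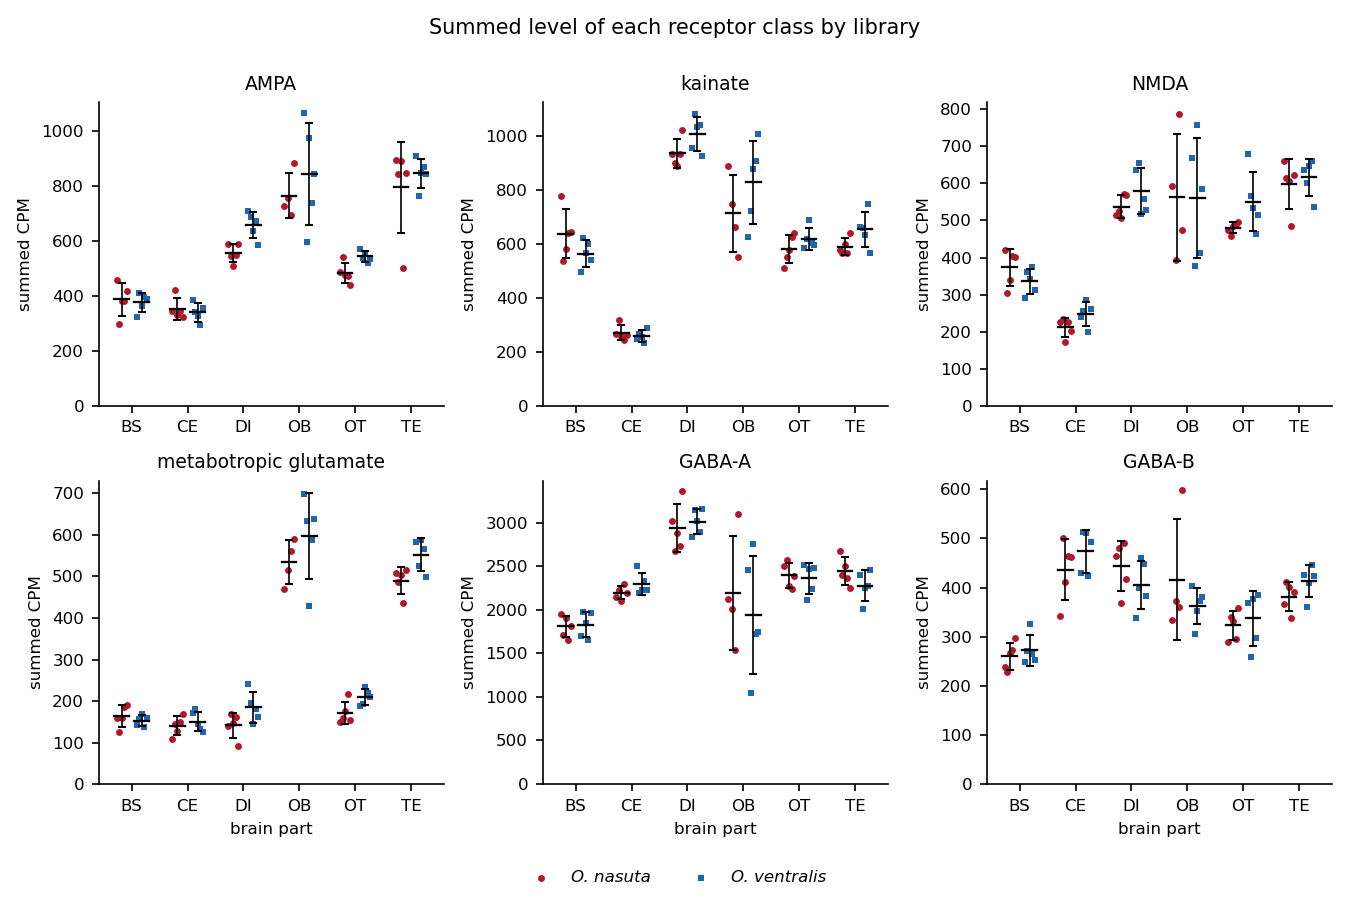
Summed CPM of the listed members of each receptor class (vertical axis) in each library, by brain part (abbreviated as in the text), with O. nasuta as red circles left of O. ventralis as blue squares; bars are the mean and 1 SD over 5 fish (4 for OB of O. nasuta). The metabotropic sum is high in OB and TE, the kainate sum is highest in DI and lowest in CE, and the GABA-A sum spreads most in OB.

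Set against each other, the sum of the 15 glutamate receptor genes over that of the 10 GABA receptor genes was 0.371 ± 0.0251 in the cerebellum of O. nasuta and 0.36 ± 0.0292 in that of O. ventralis (SD, n = 5 each). No library of another part came below 0.581, and no cerebellar library above 0.41. The ratio of the brain stem was 0.754 ± 0.0879 in O. nasuta and 0.682 ± 0.0616 in O. ventralis, while that of the telencephalon was 0.877 ± 0.093 in O. nasuta and 0.997 ± 0.0886 in O. ventralis. The diencephalon had 0.644 ± 0.037 in O. nasuta and 0.713 ± 0.069 in O. ventralis, while the optic tectum had 0.634 ± 0.0541 in O. nasuta and 0.715 ± 0.0582 in O. ventralis. In the olfactory bulbs it was 1.05 ± 0.306 in O. nasuta and 1.3 ± 0.302 in O. ventralis, while the libraries ran from 0.677 to 1.73. The highest value was that of the shallowest library, O. ventralis fish 2. The lowest value was that of O. nasuta fish 4, 1 of the libraries nearest to the telencephalon. With it the olfactory bulbs overlapped with the brain stem, the diencephalon, the optic tectum and the telencephalon, and without it, with a lowest value of 0.977, with the telencephalon only. The 3′ method gives about 1 fragment for each transcript, so these sums carry no correction for gene length, but a level also depends on how well the 3′ end of a gene is annotated in the tilapia genome to which reads were mapped.

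The main question of the design was which genes differ between brain parts within each species. The log level in a part was set against the mean of the log levels of the remaining 5 within a species (edgeR quasi-likelihood test, with a term for each fish). This was done first jointly over the 12 comparisons and then comparison by comparison, and a gene was called at an adjusted p up to 0.05. A mean of logs is pulled down by parts with very low levels, more than a mean of CPM is. A very low level in 1 part thus raises the log2 fold changes of the others, and the calls of a gene in different parts are not independent. All 23 members tested passed the joint test, where 76.5% of all 11680 genes tested did, and 22 were called in at least 1 of the 12 comparisons, where 69.7% of all genes tested were. The exception was grik1, a low-affinity kainate subunit gene, with group means of 3.59 to 19 CPM. Between the highest and the lowest part, the fitted levels of the members spanned a median of 2.51 log2 units in O. nasuta and 2.61 in O. ventralis, against a median over all genes tested of 1.18 in O. nasuta and 1.23 in O. ventralis. In bulk tissue, fewer cells of a type and less RNA per cell cannot be told apart.

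In the cerebellum, 18 of the 23 members were called in O. nasuta, 5 higher and 13 lower, where 37.2% of all genes tested were called (17.3% higher and 19.9% lower). In O. ventralis 18 members were called in the cerebellum, 6 higher and 12 lower, against 41% of all genes tested (19.2% higher and 21.8% lower). The median log2 fold change of the members in the cerebellum was −1.67 in O. nasuta and −1.72 in O. ventralis, against −0.04 in O. nasuta and −0.01 in O. ventralis over all genes tested. In both species 12 members were lower (17.1% of all genes tested were), and 5 were higher (15% were), among them gria2, grik2, grin2c and gabrd.

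In the telencephalon, 11 of the 23 members were called in O. nasuta, 7 higher and 4 lower, where 28.9% of all genes tested were called (15.8% higher and 13.1% lower). In O. ventralis 13 members were called in the telencephalon, 9 higher and 4 lower, against 28.3% of all genes tested (16% higher and 12.2% lower). The members lower there in both species were gria4, grik2, grik3 and grin2c. In the olfactory bulbs, 10 of the 23 members were called in O. nasuta, 8 higher and 2 lower, where 21.5% of all genes tested were called (13.5% higher and 8.04% lower). In O. ventralis 13 members were called in the olfactory bulbs, 11 higher and 2 lower, against 24.2% of all genes tested (15.2% higher and 9.02% lower). The telencephalon and the olfactory bulbs shared a set of members that were higher in both species, namely gabra2, gria1, grik5, grin2b, grm2 and grm5. For calls in both species the share over all genes tested was 12.6% higher in the telencephalon and 9.33% higher in the olfactory bulbs, and the members called so numbered 7 and 8. The kainate gene grik3 and the AMPA gene gria4 set them apart, both being higher in the olfactory bulbs and lower in the telencephalon.

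In the diencephalon, 12 of the 23 members were called in O. nasuta, 9 higher and 3 lower, where 18.2% of all genes tested were called (11.6% higher and 6.53% lower). In O. ventralis 9 members were called in the diencephalon, 7 higher and 2 lower, against 20.5% of all genes tested (12.4% higher and 8.11% lower). The members higher there in both species were gabra2, gabrb2, gria1, grik3, grik4, grik5 and grin2b. In the optic tectum, 12 of the 23 members were called in O. nasuta, 7 higher and 5 lower, where 23.3% of all genes tested were called (14.4% higher and 8.93% lower). In O. ventralis 11 members were called in the optic tectum, 8 higher and 3 lower, against 20.1% of all genes tested (12.7% higher and 7.39% lower). Without O. ventralis fish 1 or fish 3 this count was 7. Those higher in the optic tectum of both species included gabrg1, gria4, grik3, grin2a, grin2c and grin3b. Of these, grin3b passed the filter on low counts only through the optic tectum, so its call there is not independent of the filter. The counts for the optic tectum include it. In the brain stem, 13 of the 23 members were called in O. nasuta, 6 higher and 7 lower, where 20.2% of all genes tested were called (13.9% higher and 6.31% lower). In O. ventralis 14 members were called in the brain stem, 4 higher and 10 lower, against 18.8% of all genes tested (12.7% higher and 6.05% lower). Without O. ventralis fish 1 this count was 9. Here gabrg1, gria4, grik3 and grin2c were higher in both species. The gene grik3 was called in all 12 comparisons, lower in the cerebellum and the telencephalon and higher in the other parts. Such calls are not separate results, since each part enters the mean that the others are set against. In both species 7 members were higher in the diencephalon (9.36% of all genes tested were), 7 higher in the optic tectum (10.2%) and 4 higher in the brain stem (9.85%), while 7 were lower in the brain stem (4.09%), 2 in the diencephalon (4.92%) and 2 in the optic tectum (5.6%). Over the 6 parts, 67 pairs of a member and a part were called in the same direction in both species, and 0 were called in opposite directions. Opposite calls were not counted over all genes tested, so the value of the members cannot be set against theirs. With libraries thinned to the depth of the shallowest, fewer members were called in each of these 12 comparisons: in O. nasuta 8 (BS), 16 (CE), 7 (DI), 8 (OB), 5 (OT) and 6 (TE), and in O. ventralis 6 (BS), 13 (CE), 6 (DI), 10 (OB), 6 (OT) and 9 (TE). The share over all genes tested was not taken with thinned libraries or with single fish left out.

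**Figure D2:**
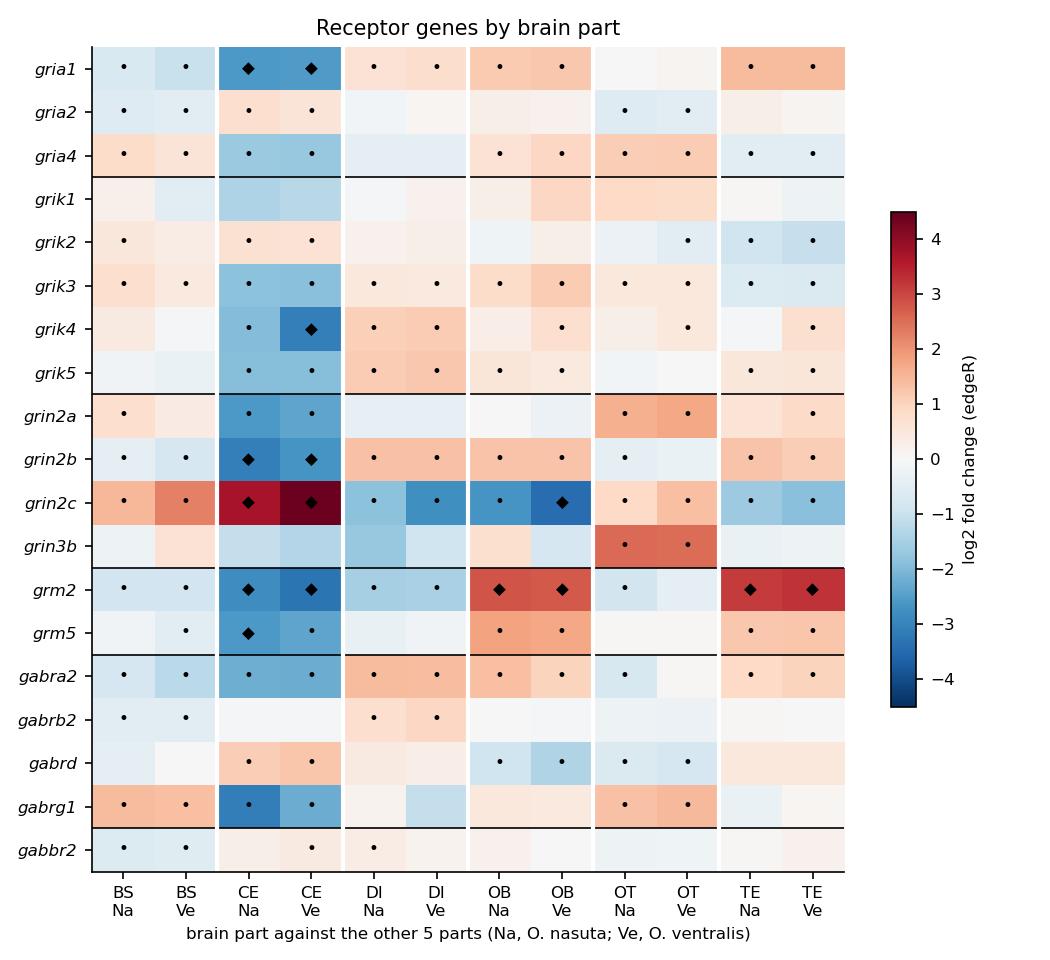
Log2 fold change (colour, edgeR) of 19 of the 23 tested members (rows, by class) in each brain part against the average log level of the other 5 parts, with O. nasuta (Na) left of O. ventralis (Ve). A dot marks an adjusted p up to 0.05 and a diamond a change significantly beyond a log2 fold change of 2; the cerebellum (CE) holds the most dots and most diamonds, and grin2c and grm2 show the strongest colours.

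A stricter test asked whether a log2 fold change was beyond 2 in size (edgeR's glmTreat). In the cerebellum 5 members passed in O. nasuta, where 4.7% of all genes tested did: gria1, grin2b, grm2 and grm5 were lower (3.19%) and grin2c was higher (1.51%). In O. ventralis 5 passed, where 5.35% did: gria1, grik4, grin2b and grm2 were lower (3.79%) and grin2c was higher (1.56%). In the telencephalon grm2 passed in both species (1.25% of all genes tested in O. nasuta, 1.26% in O. ventralis). For the olfactory bulbs grm2 passed in O. nasuta (0.899%, and 0.676% higher), and grm2 and grin2c in O. ventralis (0.805%). In the remaining parts 0 members passed with this edgeR test, where of all genes tested the share was, for the brain stem 0.967% in O. nasuta and 0.967% in O. ventralis, for the diencephalon 0.993% (0.83% higher) in O. nasuta and 1.15% in O. ventralis, for the optic tectum 0.805% in O. nasuta and 0.856% in O. ventralis. At an unadjusted p under 0.05 this was reached by grin2c (1 member) in the brain stem (1.48% of all genes tested) and in the diencephalon (2.04%) of O. ventralis, by grin3b (1 member) in the optic tectum of each species (1.32% for O. nasuta, 1.55% for O. ventralis), and by 0 members in the brain stem (1.62%) and in the diencephalon (1.7%) of O. nasuta. For grin3b the result in the optic tectum is not independent of the filter on low counts, which the gene passed only through that part. The limit was tested with no other tool.

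The NMDA receptor gene grin2c had the widest span between parts of the members tested, 5.32 log2 units in O. nasuta and 6.54 in O. ventralis. Next came grm2, with 4.95 in O. nasuta and 5.45 in O. ventralis. Among the NMDA genes, grin2c was highest in the cerebellum, where grin2b was lowest, and grin2a and grin3b were highest in the optic tectum. Cerebellar grin2c was at 158, 149, 142, 143 and 147 CPM in fish 1 to 5 of O. nasuta, with a lowest value of 2.0, a median of 7.82 and a highest value of 51.1 CPM over the 24 libraries of the other parts. In O. ventralis it was at 168, 201, 176, 122 and 169 CPM, with a lowest value of 0, a median of 5.6 and a highest value of 57.4 CPM over the 25 libraries of the other parts. In both species every cerebellar library lay above every other library. The log2 fold change was 3.72 ± 0.17 in O. nasuta (adjusted p = 4.07e-33) and 4.42 ± 0.18 in O. ventralis (adjusted p = 2.88e-37). Here and below, ± after a log2 fold change is the SE of the fit, and ± after a level or share is the SD over fish.

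The gene was also higher in the brain stem, with 34.5, 51.1, 45, 42.9 and 33.6 CPM in O. nasuta and, for O. ventralis, 48.3, 57.4, 52.4, 31.7 and 52.1 CPM, and a log2 fold change of 1.50 ± 0.22 in O. nasuta (adjusted p = 1.08e-08) and 2.25 ± 0.23 in O. ventralis (adjusted p = 5.52e-14). The optic tectum held 28.9 ± 9.64 CPM in O. nasuta and, for O. ventralis, 27.6 ± 15.3 CPM (SD, n = 5 each), with log2 fold changes of 0.89 in O. nasuta and 1.37 in O. ventralis. Like those of the brain stem, these changes are against a mean of log levels. The low levels of the diencephalon, the telencephalon and the olfactory bulbs bring that mean down. The summed list of cerebellum markers ran in the same order: it was at 8851 CPM in the cerebellum of O. nasuta and 10050.5 CPM in that of O. ventralis, at 2175 CPM in the brain stem of O. nasuta and 2768 CPM in that of O. ventralis, at 1459.5 CPM in the optic tectum of O. nasuta and 1206 CPM in that of O. ventralis, and had means of 123 to 531 CPM elsewhere. Its part in the grin2c levels, like that of the oligodendrocyte sum, which had the same order over these 3 parts, was not tested. In the remaining parts grin2c was close to the floor of the libraries. The diencephalon had 6.29, 3.8, 6.54, 6.43 and 5.8 CPM in O. nasuta and, for O. ventralis, 6.05, 2.44, 0, 3.55 and 1.34 CPM, the log2 fold change being −1.84 ± 0.33 in O. nasuta (adjusted p = 2.78e-06) and −2.74 ± 0.49 in O. ventralis (adjusted p = 2.09e-06). The telencephalon had 9.11, 5.89, 9.42, 5.49 and 3.74 CPM in O. nasuta and, for O. ventralis, 4.33, 3.44, 3.38, 6.11 and 3.49 CPM, and the log2 fold change was −1.62 ± 0.30 in O. nasuta (adjusted p = 4.14e-06) and −1.87 ± 0.43 in O. ventralis (adjusted p = 9.68e-05). These levels rest on 0 to 6 reads in each library, and with libraries thinned to the shallowest the calls in the telencephalon of both species, and in the diencephalon of O. ventralis, were lost (adjusted p = 0.402 in the telencephalon of O. nasuta and 0.084 in the others). Olfactory bulb grin2c was at 4.91, 2.0, 3.49 and 2.8 CPM in fish 1 to 4 of O. nasuta and 0, 0, 5.6, 0 and 1.94 CPM in O. ventralis, with 0 reads in 3 libraries of O. ventralis, and a log2 fold change of −2.66 ± 0.36 in O. nasuta (adjusted p = 2.32e-09) and −3.43 ± 0.52 in O. ventralis (adjusted p = 5.22e-08). With thinned libraries this call was lost in O. ventralis (adjusted p = 0.084). Without the olfactory bulb libraries that were nearest to the telencephalon the change was −2.65 in O. nasuta and −3.09 in O. ventralis.

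The order was turned round for grin2b, whose subunit is abundant in the mammalian forebrain. In the cerebellum it was at 31.6, 49.5, 15.5, 49.8 and 33.2 CPM in O. nasuta, with a lowest value of 133, a median of 351 and a highest value of 746 CPM over the 24 libraries of the other parts. In O. ventralis the cerebellum had 44, 32.5, 76.4, 35.6 and 60.7 CPM, with a lowest value of 118, a median of 378 and a highest value of 574 CPM over the 25 libraries of the other parts. All cerebellar libraries were below all other libraries of their species, with a log2 fold change of −3.06 ± 0.21 in O. nasuta (adjusted p = 3.73e-20) and −2.65 ± 0.19 in O. ventralis (adjusted p = 1.88e-19). The gene was higher in the diencephalon (444 ± 38.8 CPM in O. nasuta and, for O. ventralis, 483 ± 49.3 CPM, log2 fold changes 1.31 in O. nasuta and 1.33 in O. ventralis), the telencephalon (438 ± 45.8 CPM in O. nasuta and, for O. ventralis, 426 ± 46.1 CPM, log2 fold changes 1.27 in O. nasuta and 1.11 in O. ventralis), as well as the olfactory bulbs (436 ± 224 CPM in O. nasuta and, for O. ventralis, 468 ± 108 CPM, log2 fold changes 1.28 in O. nasuta and 1.28 in O. ventralis). Without the olfactory bulb libraries nearest to the telencephalon, those of the olfactory bulbs were 1.51 in O. nasuta and 1.20 in O. ventralis.

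As a share of the counts of the 4 NMDA genes, grin2c made up 70.6% ± 8.29 in the cerebellum of O. nasuta and 67.2% ± 7.1 in that of O. ventralis (SD, n = 5 each), grin2b 16.6% ± 5.31 in O. nasuta and 19.8% ± 5.41 in O. ventralis, while grin2a made up 11.4% ± 3.35 in O. nasuta and 12.2% ± 4.27 in O. ventralis. In the diencephalon grin2b made up 82.4% ± 2.71 in O. nasuta and 83.5% ± 0.973 in O. ventralis. In the optic tectum the leading gene was grin2a, with 54% ± 4.0 in O. nasuta and 56.2% ± 3.57 in O. ventralis, while grin2b had 34.7% ± 3.2 in O. nasuta and 34.6% ± 2.58 in O. ventralis. In the brain stem grin2a and grin2b had similar shares, at 43.1% ± 2.71 and 44.1% ± 2.19 in O. nasuta and 40.5% ± 5.11 and 42.6% ± 3.96 in O. ventralis. A different subunit gene thus had the largest share in the cerebellum, in the optic tectum and in the diencephalon, in both species.

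In the optic tectum grin2a was at 229, 243, 268, 265 and 295 CPM in O. nasuta and, for O. ventralis, 405, 291, 292, 257 and 308 CPM, and the log2 fold change was 1.59 ± 0.21 in O. nasuta (adjusted p = 6.4e-08) and 1.76 ± 0.21 in O. ventralis (adjusted p = 6.55e-09). All 5 tectal libraries of O. ventralis were above every other library of that species, and in O. nasuta the highest library of another part, the olfactory bulbs of fish 4 at 243 CPM, reached into their range. Among olfactory bulb libraries grin2a ranged widely, from 26.8 to 243 CPM in O. nasuta and from 0 to 171 CPM in O. ventralis, where the value of 0 is that of the shallowest library. The glycine-binding subunit gene grin3b was scarce outside the optic tectum. There it was at 30.01, 15.6, 25.2, 29.4 and 26.6 CPM in O. nasuta and, for O. ventralis, 25.3, 15.7, 25, 17.3 and 23 CPM, against group means of 1.93 to 7.85 CPM in the other parts. For this gene the log2 fold change was 2.56 ± 0.33 in O. nasuta (adjusted p = 7.66e-10) and 2.52 ± 0.39 in O. ventralis (adjusted p = 1.08e-07). With thinned libraries the call in O. ventralis was lost (adjusted p = 0.193). The gene was over 15 CPM in 11 of the 59 libraries, all those of the optic tectum and the brain stem of O. ventralis fish 5. It thus passed the filter on low counts only through the part where it is high. Its fold changes and p-values there are therefore not independent of the filter.

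**Figure D3:**
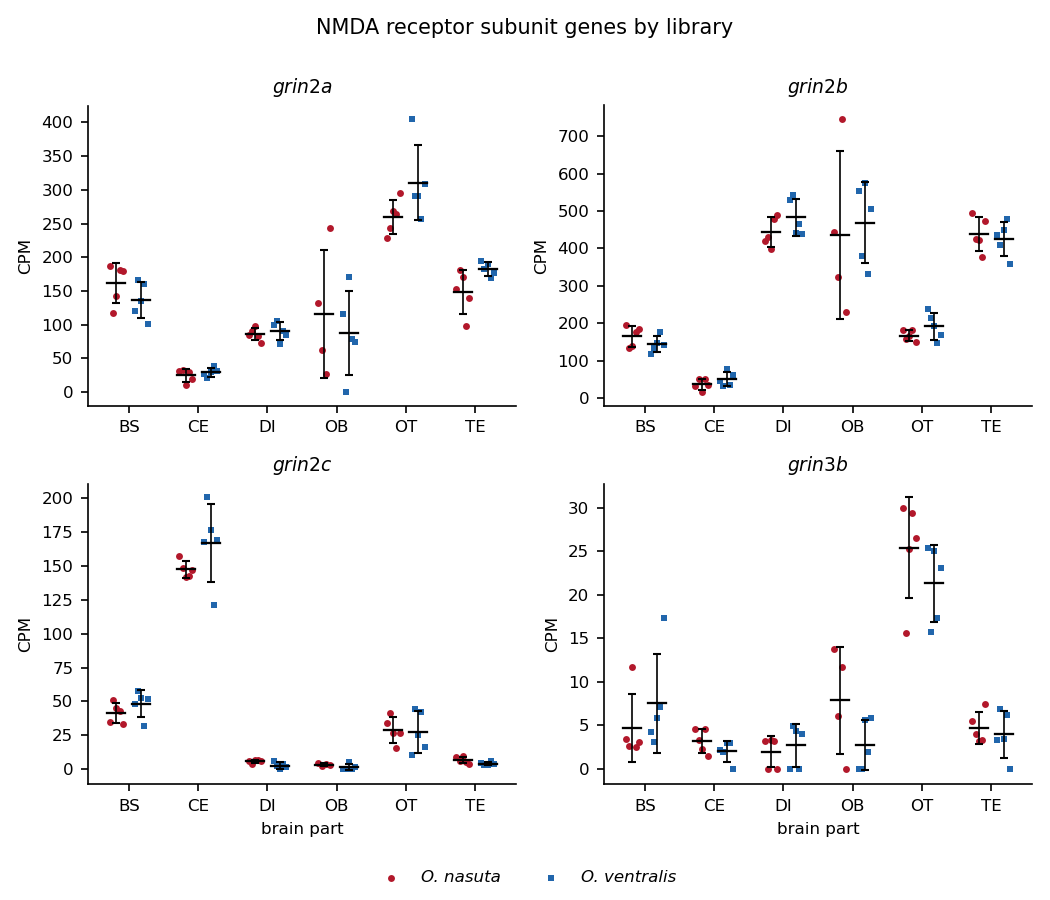
CPM (vertical axes) of the 4 NMDA receptor genes in each library by brain part, with O. nasuta as red circles left of O. ventralis as blue squares; bars are the mean and 1 SD over 5 fish (4 for OB of O. nasuta). Cerebellar (CE) libraries are the highest for grin2c and the lowest for grin2b, and the optic tectum (OT) is highest on average for grin2a and grin3b.

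Among the AMPA receptor genes, the cerebellum had much less gria1 and gria4 and more gria2 than the other parts. The subunit encoded by gria2 is the one that keeps calcium out of the channel in mammals. Cerebellar gria1 was at 40.6, 82.5, 44.4, 70.2 and 36.1 CPM in O. nasuta, with a lowest value of 99.7, a median of 327 and a highest value of 619 CPM over the 24 libraries of the other parts. In O. ventralis it was at 54.4, 51.6, 55.8, 71.2 and 73.5 CPM, with a lowest value of 120.2, a median of 395 and a highest value of 712 CPM over the 25 libraries of the other parts. The cerebellar libraries were again all below the others, and the log2 fold change was −2.58 ± 0.18 in O. nasuta (adjusted p = 1e-21) and −2.54 ± 0.17 in O. ventralis (adjusted p = 5.7e-23). The telencephalon (538 ± 93.7 CPM in O. nasuta and, for O. ventralis, 600.0 ± 27.5 CPM) and the olfactory bulbs (464 ± 87 CPM in O. nasuta and, for O. ventralis, 527 ± 169 CPM) had the highest levels of gria1, with log2 fold changes of 1.41 in O. nasuta and 1.43 in O. ventralis for the telencephalon and of 1.17 in O. nasuta and 1.22 in O. ventralis for the olfactory bulbs (1.0 in O. nasuta and 1.07 in O. ventralis without the libraries nearest to the telencephalon).

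Cerebellar gria2 had 274 ± 23.9 CPM in O. nasuta and, for O. ventralis, 257 ± 35.6 CPM, against means of 126 to 213 CPM in the other parts, and the log2 fold change was 0.74 ± 0.13 in O. nasuta (adjusted p = 3.97e-06) and 0.60 ± 0.13 in O. ventralis (adjusted p = 0.000208). In both species the cerebellar libraries overlapped with some libraries of other parts. As a share of the 3 AMPA genes, gria2 made up 77.7% ± 2.74 in the cerebellum of O. nasuta and 75.3% ± 4.74 in that of O. ventralis, where gria1 made up 15.2% ± 4.35 in O. nasuta and 18.2% ± 4.18 in O. ventralis. In the telencephalon gria1 made up 68.2% ± 5.72 in O. nasuta and 70.9% ± 2.64 in O. ventralis. The gene gria4 was highest in the optic tectum, at 117 ± 16 CPM in O. nasuta and, for O. ventralis, 129.5 ± 21.2 CPM, and lowest in the cerebellum, at 24.8 ± 12.9 CPM in O. nasuta and, for O. ventralis, 22.2 ± 8.26 CPM. The log2 fold changes were 1.12 in O. nasuta and 1.13 in O. ventralis for the optic tectum and −1.67 in O. nasuta and −1.72 in O. ventralis for the cerebellum.

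**Figure D4:**
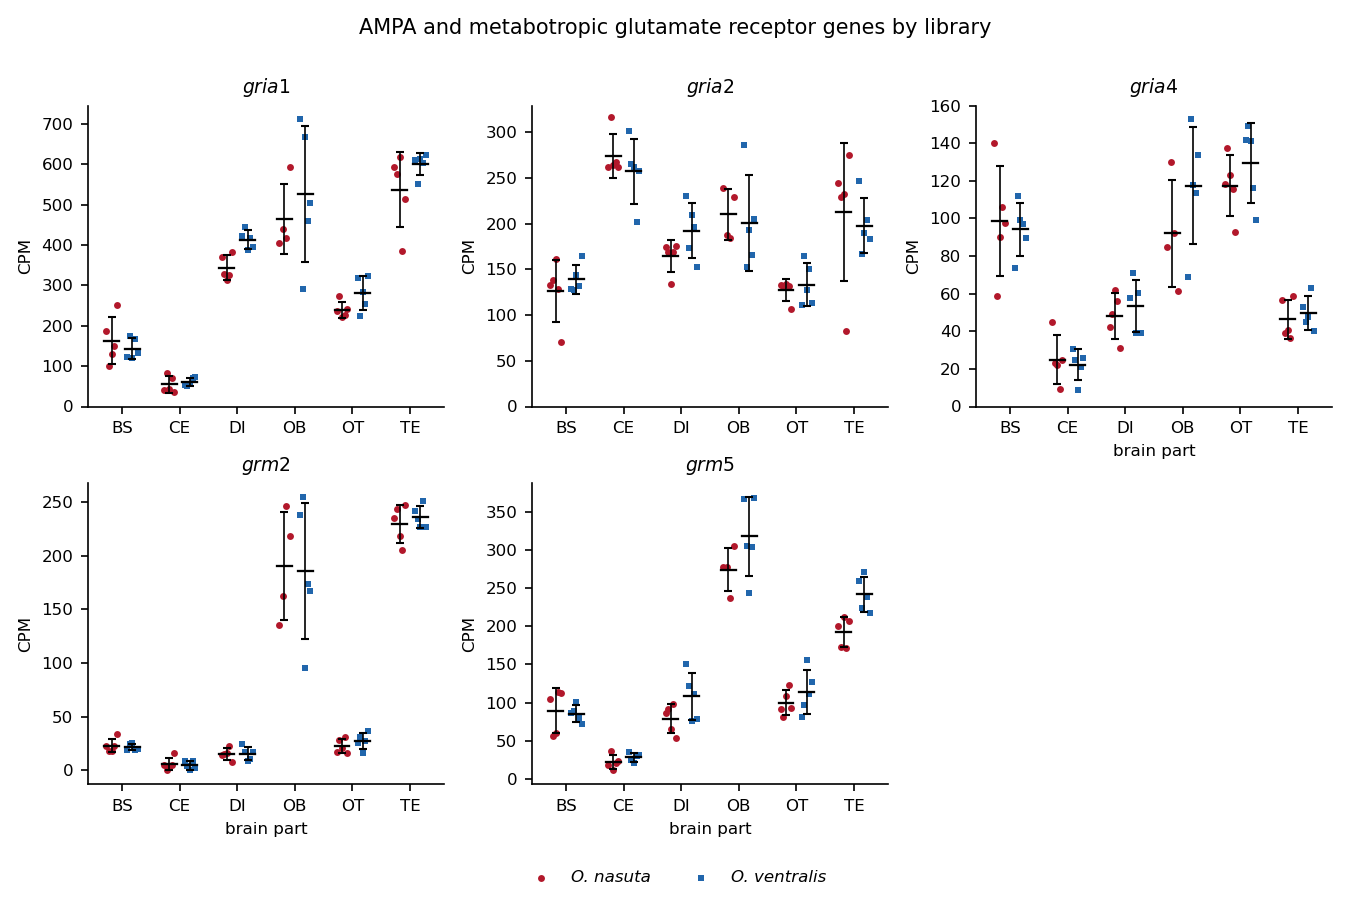
CPM (vertical axes) of the 3 AMPA receptor genes and the metabotropic glutamate receptor genes grm2 and grm5 in each library by brain part, with O. nasuta as red circles left of O. ventralis as blue squares; bars are the mean and 1 SD over 5 fish (4 for OB of O. nasuta). For grm2 all OB and TE libraries lie above all libraries of the other 4 parts, and for gria1 the cerebellum (CE) is lowest.

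The metabotropic gene grm2 codes for a receptor that lowers transmitter release in mammals, and it separated the telencephalon and the olfactory bulbs from the rest of the brain. In the telencephalon it was at 235, 243, 218, 205 and 247 CPM in O. nasuta and, for O. ventralis, 241, 234, 227, 251 and 227 CPM. The olfactory bulbs had 136, 162, 246 and 218 CPM in fish 1 to 4 of O. nasuta and 237, 255, 95.2, 174 and 167 CPM in O. ventralis. The libraries of both parts lay above all others, since the highest value elsewhere was 36.8 CPM and the lowest in these parts was 95.2 CPM. The log2 fold change was 3.15 ± 0.14 in O. nasuta (adjusted p = 2.8e-33) and 3.26 ± 0.15 in O. ventralis (adjusted p = 1.21e-33) for the telencephalon and 2.84 ± 0.17 in O. nasuta (adjusted p = 9.16e-27) and 2.78 ± 0.16 in O. ventralis (adjusted p = 1.24e-26) for the olfactory bulbs. Without the olfactory bulb libraries that were nearest to the telencephalon, it was 2.79 in O. nasuta and 2.67 in O. ventralis in the olfactory bulbs. Cerebellar grm2 was at 4.51, 0, 4.44, 4.53 and 15.9 CPM in O. nasuta and, for O. ventralis, 8.38, 3.82, 0, 8.9 and 1.84 CPM, and the log2 fold change was −2.80 ± 0.31 in O. nasuta (adjusted p = 1.07e-12) and −3.29 ± 0.30 in O. ventralis (adjusted p = 1.59e-16). In the cerebellum, a value of 0 reads was seen in 1 library of each species.

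The receptor encoded by grm5 activates phospholipase C, and its gene was lower in the cerebellum. Cerebellar grm5 was at 18, 36.3, 11.1, 20.4 and 23.1 CPM in O. nasuta, with a lowest value of 54.1, a median of 111 and a highest value of 305 CPM over the 24 libraries of the other parts. In O. ventralis it was at 35.6, 24.9, 20.6, 29.7 and 31.3 CPM, with a lowest value of 72.3, a median of 127 and a highest value of 368 CPM over the 25 libraries of the other parts. The cerebellar libraries were below all others, with a log2 fold change of −2.59 ± 0.21 in O. nasuta (adjusted p = 8.6e-19) and −2.37 ± 0.18 in O. ventralis (adjusted p = 3.5e-20), and in O. ventralis the change was not significantly beyond 2. The gene grm5 was highest in the olfactory bulbs, at 274 ± 27.7 CPM in O. nasuta (n = 4) and 318 ± 52 CPM in O. ventralis, followed by the telencephalon, at 193 ± 19.3 CPM in O. nasuta and, for O. ventralis, 242 ± 22.7 CPM. The log2 fold changes were 1.80 in O. nasuta and 1.75 in O. ventralis for the olfactory bulbs, 1.79 in O. nasuta and 1.71 in O. ventralis without those libraries, and 1.20 in O. nasuta and 1.26 in O. ventralis for the telencephalon.

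Of the kainate receptor genes, grik5 and grik4 code for subunits that form channels only together with those of grik1, grik2 or grik3. The highest member of the class was grik5. In the diencephalon it was at 521, 466, 477, 548 and 618 CPM in O. nasuta and, for O. ventralis, 550.3, 687, 619, 617 and 563 CPM, above all other libraries of each species. This gave a log2 fold change of 1.13 ± 0.11 in O. nasuta (adjusted p = 7.45e-16) and 1.22 ± 0.10 in O. ventralis (adjusted p = 7.18e-18). In the cerebellum grik5, grik3 and grik4 were all lower, with log2 fold changes of −1.90 in O. nasuta and −1.90 in O. ventralis for grik5, −1.86 in O. nasuta and −1.88 in O. ventralis for grik3 and −1.95 in O. nasuta and −3.09 in O. ventralis for grik4. For these genes each cerebellar library lay below every library of the other parts in its species. In contrast, grik2 was higher in the cerebellum, at 107 ± 12 CPM in O. nasuta and, for O. ventralis, 104 ± 23.2 CPM, and lower in the telencephalon, at 41.7 ± 4.15 CPM in O. nasuta and, for O. ventralis, 39.1 ± 10.5 CPM. Its log2 fold changes were 0.70 in O. nasuta and 0.67 in O. ventralis for the cerebellum and −0.90 in O. nasuta and −1.04 in O. ventralis for the telencephalon. The cerebellum had less of 3 kainate subunit genes and more of grik2, while grik1 did not pass the test there at 5.7 ± 4.18 CPM in O. nasuta and, for O. ventralis, 3.59 ± 2.15 CPM. The gene grik3 varied among olfactory bulb libraries, from 61.5 to 214 CPM in O. nasuta and from 87.2 to 371 CPM in O. ventralis, and in each species the lowest value was that of the library nearest to the telencephalon. Its log2 fold change in the olfactory bulbs was 0.81 in O. nasuta and 1.16 in O. ventralis with these libraries, and 1.05 in O. nasuta and 1.35 in O. ventralis without them. The value of 371 CPM was that of the shallowest library, O. ventralis fish 2. Without that library alone the change in O. ventralis was 0.95.

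Among the GABA-A receptor genes gabrb2, which codes for a subunit of the most common receptor type in mammals, had the highest level. The highest of all members as well, it was at 1587, 1262, 1475, 1374 and 1932 CPM in the diencephalon of O. nasuta and 1464, 1674, 1669, 1498 and 1719.6 CPM in that of O. ventralis, against group means of 689 to 1007 CPM in the other parts. For this gene the log2 fold change was 0.75 ± 0.10 in O. nasuta (adjusted p = 2.35e-09) and 0.94 ± 0.10 in O. ventralis (adjusted p = 3.43e-13).

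The subunit of gabrd forms receptors outside the synapse that answer to low ambient GABA in mammals. It was highest in the cerebellum, at 437, 535, 466, 561 and 338 CPM in O. nasuta and, for O. ventralis, 551, 476, 514, 584 and 504 CPM. The cerebellar libraries of O. ventralis lay above all others, and in O. nasuta 1 of them overlapped with the highest libraries elsewhere. The log2 fold change was 1.12 ± 0.19 in O. nasuta (adjusted p = 7.96e-06) and 1.26 ± 0.18 in O. ventralis (adjusted p = 2.97e-07). In the optic tectum gabrd was at 216, 203, 149.9, 112 and 149 CPM in O. nasuta and, for O. ventralis, 132, 165, 174, 176 and 159 CPM, with a log2 fold change of −0.67 ± 0.22 in O. nasuta (adjusted p = 0.0334) and −0.75 ± 0.22 in O. ventralis (adjusted p = 0.0188); leaving out 1 fish ended the call in O. nasuta without its fish 2, 3 or 5 or O. ventralis fish 2, 3 or 4, and in O. ventralis without its fish 1, 2, 3 or 4 (adjusted p = 0.0552 to 0.0912). The olfactory bulbs had 138, 102, 66.4 and 347 CPM in fish 1 to 4 of O. nasuta and 235, 80.05, 129, 96.4 and 40.7 CPM in O. ventralis. The highest value of each species was that of the library nearest to the telencephalon, where gabrd had 320.0 ± 73.8 CPM in O. nasuta and, for O. ventralis, 333 ± 46.8 CPM. The log2 fold change in the olfactory bulbs was −0.88 ± 0.24 in O. nasuta (adjusted p = 0.00991) and −1.34 ± 0.24 in O. ventralis (adjusted p = 2.64e-05), and without these libraries −1.51 in O. nasuta and −1.85 in O. ventralis. Leaving out only the shallowest olfactory bulb library gave −1.28 in O. ventralis.

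The α2 subunit gene gabra2 had its highest levels in the diencephalon, at 81.8, 106, 108, 88.5 and 88.9 CPM in O. nasuta and, for O. ventralis, 60.5, 117, 95.9, 103 and 95.2 CPM, with a log2 fold change of 1.42 ± 0.17 in O. nasuta (adjusted p = 4.11e-11) and 1.38 ± 0.17 in O. ventralis (adjusted p = 1.01e-10). The brain stem had 31.1, 12.8, 29.99, 25.2 and 33.6 CPM in O. nasuta and, for O. ventralis, 12.6, 30.2, 25.2, 17.6 and 14.5 CPM, with a log2 fold change of −0.76 ± 0.23 in O. nasuta (adjusted p = 0.00574) and −1.22 ± 0.23 in O. ventralis (adjusted p = 8.51e-06). In both species these overlapped with the lowest libraries elsewhere, and with thinned libraries the call in O. nasuta was lost (adjusted p = 0.32). It was lowest in the cerebellum, at 11.7 ± 4.35 CPM in O. nasuta and, for O. ventralis, 11.4 ± 3.14 CPM. The scarce γ1 gene gabrg1 was higher in the brain stem (21.4 ± 7.63 CPM in O. nasuta and, for O. ventralis, 22.7 ± 6.35 CPM) and the optic tectum (19.98 ± 4.35 CPM in O. nasuta and, for O. ventralis, 25.2 ± 9.6 CPM). It was lower and near 0 in the cerebellum, at 0.867 ± 1.94 CPM in O. nasuta and, for O. ventralis, 3.2 ± 2.62 CPM, with 0 reads in 4 cerebellar libraries of O. nasuta. Of the genes that did not pass the filter, gabra4 had group means of 0.14 to 7.06 CPM and gabrg3 of 0.279 to 9.5 CPM, the means of gabrg3 being highest in the olfactory bulbs, at 8.01 ± 4.47 CPM in O. nasuta and, for O. ventralis, 9.5 ± 6.12 CPM.

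The GABA-B receptor works as a pair of subunits, of which gabbr2 codes for the one that couples to the G protein. In the brain stem it was at 238, 227, 267, 273 and 296 CPM in O. nasuta and, for O. ventralis, 248, 270.5, 326, 264 and 252 CPM, with a log2 fold change of −0.61 ± 0.11 in O. nasuta (adjusted p = 3.7e-06) and −0.54 ± 0.11 in O. ventralis (adjusted p = 3.13e-05). The means in the other parts were 323 to 474 CPM, and its levels spanned 0.78 log2 units between parts in O. nasuta and 0.80 in O. ventralis, less than the median of the members.

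**Figure D5:**
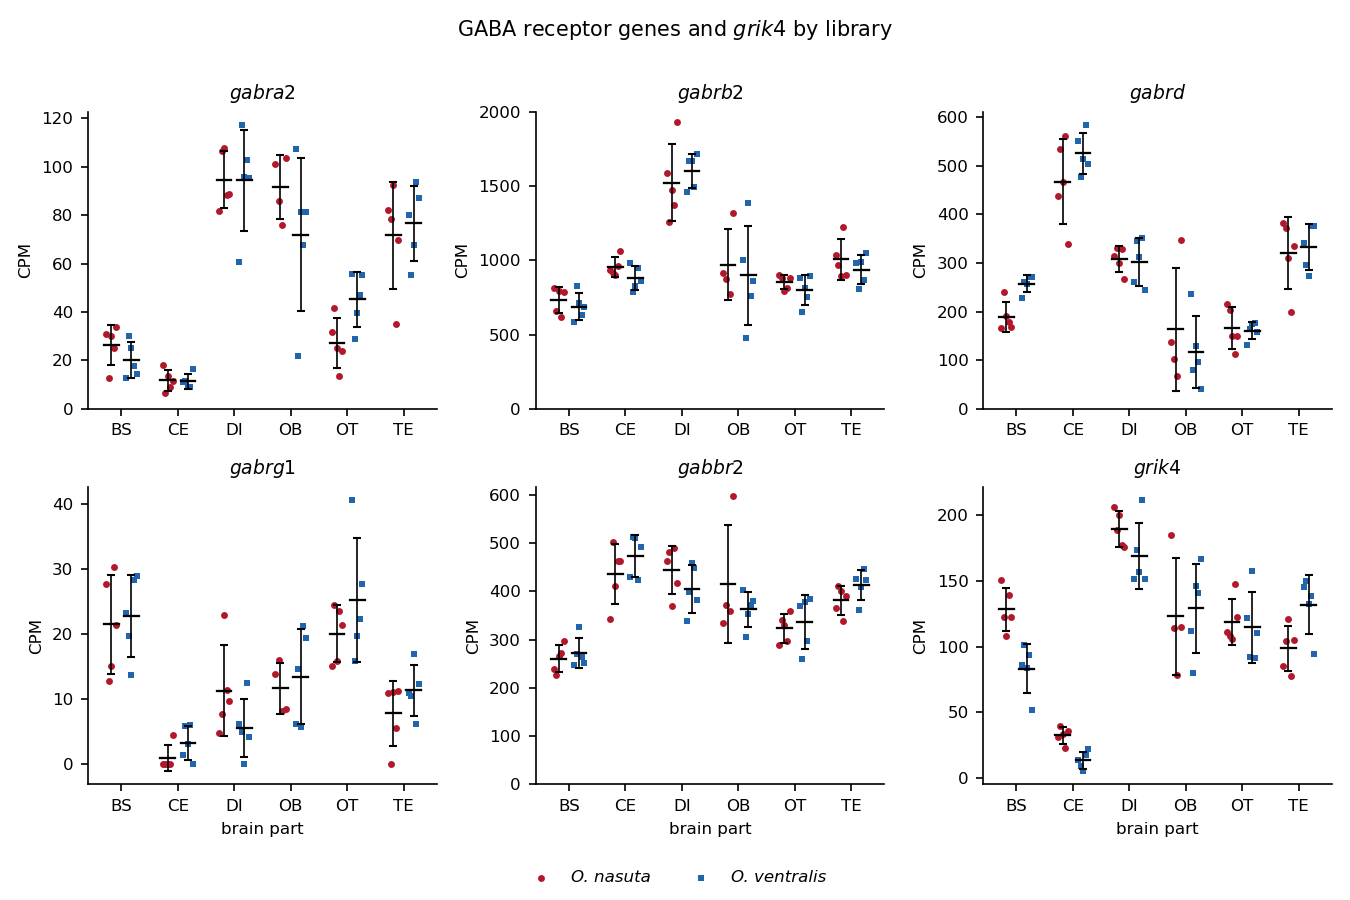
CPM (vertical axes) of 5 GABA receptor genes and the kainate receptor gene grik4 in each library by brain part, with O. nasuta as red circles left of O. ventralis as blue squares; bars are the mean and 1 SD over 5 fish (4 for OB of O. nasuta). The diencephalon (DI) is highest for gabrb2, the cerebellum (CE) for gabrd on average, and cerebellar grik4 is lower in O. ventralis than in O. nasuta.

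Across the 12 group means (log2 CPM, 6 parts in each species), several members of different classes followed each other. The pairs most alike were gria1 and grin2b (Pearson's r = 0.97), gabra2 and grin2b (r = 0.97) and grik5 and grin2b (r = 0.96). The gene least like grin2b was grin2c (r = −0.96). For grm2 the most alike was grm5 (r = 0.93), for grm5 it was gria1 (r = 0.93), and gria4 was most like gabrg1 (r = 0.89) and grik3 (r = 0.89). These values describe 12 means that share fish and libraries and are given without a test.

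Genes that work with these receptors were counted from lists of their partners. Of 7 listed transporter genes for glutamate, 3 were found by name (slc17a6, slc1a1 and slc1a2), and these 3 were lower in the cerebellum in both species. The genes slc17a7, slc17a8, slc1a3 and slc1a6 were not found by name, so the list covers only some of these transporters. The vesicular transporter gene slc17a6 had a log2 fold change of −3.45 in O. nasuta and −4.82 in O. ventralis there, and it was higher in the telencephalon (1.72 in O. nasuta and 2.06 in O. ventralis). Of 6 genes for GABA synthesis, breakdown and transport, 5 were lower in the cerebellum (17.1% of all genes tested were) and 5 higher in the optic tectum (10.2%) in both species. The gene gad2, which codes for a GABA-making enzyme, had a log2 fold change of −1.74 in O. nasuta and −2.02 in O. ventralis in the cerebellum and of 1.33 in O. nasuta and 1.33 in O. ventralis in the optic tectum.

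Of the 5 tested genes for auxiliary subunits of AMPA and kainate receptors, 3 were lower and 1 higher in the cerebellum in both species. The summed level of the 7 such genes found by name was highest in the cerebellum in O. nasuta, at 1400 CPM. In O. ventralis it was highest in the telencephalon, at 1101 CPM, with 918 CPM in the cerebellum. The cornichon gene cnih2, an AMPA receptor partner, had a log2 fold change of −5.30 in O. nasuta and −5.12 in O. ventralis in the cerebellum and of 2.55 in O. nasuta and 2.34 in O. ventralis in the telencephalon. The kainate partner gene neto1 had −2.20 in O. nasuta and −2.31 in O. ventralis, while the AMPA partner gene shisa9 had 1.61 in O. nasuta and 1.58 in O. ventralis in the cerebellum. Both GABA-B auxiliary genes, kctd12 and kctd16, were lower in the cerebellum, with −3.72 in O. nasuta and −4.33 in O. ventralis for kctd12 and −4.27 in O. nasuta and −4.47 in O. ventralis for kctd16. Of 11 scaffold genes of excitatory synapses, 5 were higher and 4 lower in the cerebellum in both species, among the lower ones dlgap3 (−2.38 in O. nasuta and −2.73 in O. ventralis), as well as grip1 (−2.50 in O. nasuta and −2.11 in O. ventralis). Of 3 scaffold genes of inhibitory synapses, 1 was higher and 1 lower in the cerebellum in both species, the lower one being gphn (−0.68 in O. nasuta and −0.58 in O. ventralis). The phospholipase C gene plcb4, which acts after metabotropic receptors in mammals, was higher in the cerebellum, with 3.28 in O. nasuta and 3.36 in O. ventralis. These lists hold few genes, and each partner list lacks genes that were not found by name. Of all genes tested, 17.1% were lower and 15% higher in the cerebellum in both species. In the telencephalon 12.6% were higher in both species.

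The second question of the design was whether differences between parts differ between the species. For this, 15 comparisons asked of a pair of parts whether their log2 difference was larger in one species than in the other. Of the 23 members, 0 were called in any of them with edgeR, where 0.248% of all genes tested were, and 5 members had an unadjusted p under 0.05 in at least 1 (among them gabra2, grik4, grin2c and grin3b), where 40% of all genes tested did. With DESeq2, 1 member was called, grik4. In the joint test over the 15 comparisons grik4 alone passed (adjusted p = 0.0371, edgeR), where 0.402% of all genes tested did. This call was lost without any single fish other than O. ventralis fish 5 (adjusted p = 0.0542 to 0.135) and with thinned libraries (adjusted p = 0.17). Its largest single comparison was that of the cerebellum with the telencephalon: the log2 difference was 1.61 units higher in O. nasuta than in O. ventralis (95% confidence interval 0.91 to 2.31, adjusted p = 0.068).

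Within the cerebellum grik4 was at 31.6, 39.6, 33.3, 22.6 and 36.1 CPM in O. nasuta and, for O. ventralis, 14, 9.56, 5.88, 17.8 and 22.1 CPM, and all values of O. nasuta were above those of O. ventralis. These values rest on few reads: 7, 12, 15, 10 and 25 in O. nasuta and 20, 5, 2, 6 and 12 in O. ventralis. The value of 5.88 CPM lay below the floor of its library, 8.525 CPM. The log2 fold change between the species was 1.19 ± 0.30 (SE, adjusted p = 0.00995, edgeR, 2.48% of all genes tested called). The gene grik4 was the only one of the 23 members called between the species in any part. Adjustment was over all genes within a part and not over the 6 parts. The authors made no test of species within a part. They gave as reasons that variation among and inside fish could not be corrected for, and that species coincided with aquarium. Against the other parts, cerebellar grik4 was lower in both species, with a log2 fold change of −1.95 ± 0.19 in O. nasuta (adjusted p = 1.88e-14) and −3.09 ± 0.21 in O. ventralis (adjusted p = 2.63e-22). The estimates for the other parts were 0.60 in the brain stem (adjusted p = 0.112) and −0.43 in the telencephalon (adjusted p = 0.248), where the levels were 128 ± 16.3 CPM in O. nasuta and, for O. ventralis, 83.2 ± 18.7 CPM for the brain stem, and 98.6 ± 17 CPM in O. nasuta and, for O. ventralis, 132 ± 22.1 CPM for the telencephalon. Without fish 5 of O. nasuta the cerebellar call was lost (log2 fold change 1.14, adjusted p = 0.057).

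In the other 5 parts 0 members were called between the species with edgeR, DESeq2 or limma voom. The share called over all genes tested was 1.06% for BS, 1.46% for DI, 2.73% for OB, 1.82% for OT and 2.1% for TE. At an unadjusted p under 0.05 there were 2 members for BS (grik1 and grik4), 1 for DI (grm5), 2 for OB (grin3b among them), 2 for OT (gabra2 among them) and 2 for TE (grik4 and grm5). Of all genes tested, 10.9% to 17.3% had such a p in these parts. A p that misses the threshold does not show that the species have equal levels: for grin2c in the cerebellum the log2 fold change between the species was −0.19, with a 95% confidence interval of −0.55 to 0.17, and for grm2 in the telencephalon it was −0.04, with an interval of −0.39 to 0.31.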

How the data were processed

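In all, 6 brain parts of 10 female fish were sequenced with a 3′ kit that gives about 1 fragment for each transcript. The authors trimmed the reads with Trimmomatic, mapped them to the O. niloticus genome with STAR 2.5.2b and counted them on the sense strand with HTSeq 0.6.1p1, discarding reads of low mapping quality and reads over more than 1 gene. The deposited values are raw counts per gene, without normalization, and rows that name no gene (32.1% of all reads listed) were left out of library sizes and tests. Genes with near-identical copies may lose reads to these filters.

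Counts were analysed with R 4.3.3, edgeR 4.0.16 (quasi-likelihood F-test, robust, legacy fit), limma 3.58.1 and DESeq2 1.42.0. The filter asked for more than 15 CPM in 4 or more libraries, which 11680 genes passed, scaling was by TMM, and levels are TMM-scaled CPM. As in the study's methods, 1 library of the olfactory bulbs (O. nasuta, fish 5) was left out for its depth. The model had a term for each fish and each part within species. Joint tests over 12 or 15 comparisons used Benjamini-Hochberg adjustment at 0.05, then a Holm step inside each gene, and glmTreat with a limit of 2. Species were compared within parts without fish terms, with Benjamini-Hochberg adjustment over all genes. SE and intervals come from the fit. All tests are two-sided.

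Same-numbered libraries of a species come from the same fish, and residuals correlated by 0.0534 on average within a fish (145 pairs) and by −0.0134 between fish (580 pairs). A chi-square per degree of freedom between replicates was obtained for some pairs only, with a lowest value of 1.36. These were pairs of the cerebellum in both species and of the optic tectum and olfactory bulbs in O. ventralis. For other pairs the check cannot tell, and all libraries were counted as separate samples, as labelled. Members and lists were chosen with earlier results of these data known. Values by fish are given for members beyond the limit of 2, for the member with the largest mean change in each direction in each part, for those called between species and for the highest member of each class, beside others chosen after their values were seen. Genes of the other lists are named at most 2 per list and part. Some members and list genes enter the counts and sums but are not reported here by name. The test was tried on simulated data. Alternatives were the scaling, the filter, the tool, the depth, the fish terms, all 60 libraries, and leaving out libraries or single fish. RNA was extracted in batches that the labels do not give for single samples, so they could not enter the model.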

Additional observations from a re-analysis of the deposited data

Results flagged for a closer look

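Of 216 groups examined (9 members and 9 sums in 12 groups of 4 or 5 libraries), 12 held a value whose distance to the nearest other value exceeded Dixon's 95% limit. The groups overlap, since the sums contain members and other sums, and some values rest on few reads, so no expected number is given. The part of these values in the results was not tested.

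In the telencephalon of O. nasuta fish 4, the AMPA sum was 504 CPM, against 846 to 894 CPM in the other fish, and the sum over glutamate receptor genes was 1990.1 CPM, against 2513 to 2641 CPM. In that library gria2 was at 82.3 CPM. In the olfactory bulbs of O. nasuta fish 4, the library nearest to the telencephalon, GABA-B gene gabbr2 was at 599 CPM, against 334 to 372 CPM. Cerebellar grm2 was at 15.9 CPM in O. nasuta fish 5, against 0 to 4.53 CPM. The low gene grin3b was at 11.7 CPM in the brain stem of O. nasuta fish 3, against 2.52 to 3.45 CPM, and at 17.4 CPM in that of O. ventralis fish 5, against 3.02 to 7.04 CPM. Other single values were small departures: grin2c at 3.80 CPM in the diencephalon of O. nasuta fish 2 (others 5.80 to 6.54), gria1 at 552 CPM in the telencephalon of O. ventralis fish 2 (others 603 to 622), and an AMPA sum of 423 CPM in the cerebellum of O. nasuta fish 2 (others 322 to 347). In O. ventralis the sum of all members was 6164 CPM in the diencephalon of fish 2 (others 5718 to 5804), the cerebellar glutamate sum was 857 CPM in fish 4 (others 1011 to 1044), and the cerebellar GABA sum was 2929.5 CPM in fish 1 (others 2709 to 2750.2).

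The difference between the species in how grik4 varies over the parts was singled out because its joint test passed (adjusted p = 0.0371), with cerebellar values of 31.6, 39.6, 33.3, 22.6 and 36.1 CPM in O. nasuta and, for O. ventralis, 14, 9.56, 5.88, 17.8 and 22.1 CPM. The joint test no longer passed without 9 of the 10 fish in turn. The library left out (olfactory bulbs, O. nasuta fish 5) was singled out because it holds data that the comparisons do not use: 125 counts fell on 20 of the members.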

How the results depend on the processing

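With each fish left out in turn, the number of members called in O. nasuta was 10 to 13 (BS), 17 to 19 (CE), 9 to 13 (DI), 8 to 10 (OB), 8 to 12 (OT) and 9 to 13 (TE). In O. ventralis it was 9 to 14 (BS), 18 each time (CE), 8 to 9 (DI), 11 to 14 (OB), 7 to 11 (OT) and 11 to 14 (TE). The lowest counts of O. ventralis came without its fish 1 (9 in BS, 7 in OT) or its fish 3 (7 in OT). Over the same fits 0 to 1 members were called in the 15 species by part comparisons and 0 to 1 between the species in the cerebellum, and 0 between the species in each other part.

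With libraries thinned to the depth of the shallowest, fewer members were called in all 12 comparisons of a part: in O. nasuta 8 (BS), 16 (CE), 7 (DI), 8 (OB), 5 (OT) and 6 (TE), and in O. ventralis 6 (BS), 13 (CE), 6 (DI), 10 (OB), 6 (OT) and 9 (TE). Depth therefore limits these counts. For the alternatives of this section the share called over all genes tested was not taken. Whether members lost calls more or less often than other genes thus cannot be told. In the species by part comparisons 1 member, grik4, was called with the size factors of DESeq2, with no filter, with DESeq2 in place of edgeR, and without the olfactory bulb libraries nearest to the telencephalon, an alternative chosen after seeing the data.

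Without the replicate block (no term for fish) the calls in O. nasuta were 14, 19, 14, 10, 12 and 11, and in O. ventralis 14, 18, 10, 13, 11 and 13, in the order BS, CE, DI, OB, OT and TE, and 0 in the species by part comparisons. With fish as a random replicate block in limma voom, grik4 was called between the species in the cerebellum and no other member in any part. The tool changed together with the block, so the effect of the block alone was not tested. Of 660 refits of 33 named values, 642 kept direction and call, 18 kept the direction and lost the call, and none changed direction. The values were picked for their size or their call in these same data, and the refits use most or all of the same libraries. A kept direction was therefore likely beforehand. Of the lost calls, 10 were those of gabrd in the optic tectum without single fish (adjusted p = 0.0552 to 0.0912). The value of grik4 between the species in the cerebellum ran from 1.08 to 2.61 on the log2 scale (adjusted p = 0.00309 to 0.057), the highest with thinned libraries.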
